A study of Mus musculus with 24 samples.

Results

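The genes described here are 34 subunits of the receptors for glutamate and GABA, out of 47069 gene identifiers counted in mouse hippocampus. The rule that picks them is a fixed list of names and uses no measured value, although the list was drawn up with earlier results of these data known. They fall into 4 AMPA subunits (Gria1 to Gria4), 7 NMDA subunits (Grin1, Grin2a to Grin2d, Grin3a and Grin3b), 5 kainate subunits (Grik1 to Grik5), the delta subunit Grid1, 6 metabotropic glutamate receptors (Grm2, Grm3, Grm4, Grm5, Grm7 and Grm8), 9 GABA-A subunits (Gabra2 to Gabra5, Gabrb1, Gabrb2, Gabrd, Gabrg1 and Gabrg3) and the 2 GABA-B subunits (Gabbr1 and Gabbr2). All 34 were found in every one of the 18 libraries' count tables.

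RNA sequencing was carried out on hippocampi of male mice aged 2 to 4 months, and each library holds the tissue of 3 pooled mice. KO mice carried a null allele of Kdm5c (Kdm5c-/y), an X-linked demethylase of histone H3 lysine 4, and were compared with wild-type (WT) mice on a mixed C57/129 F1 background. Both genotypes were studied untreated and after novelty, which was 1 h spent alone in a box holding tubing and toys. The second line, called ifKO, joined a floxed Kdm5c allele (Kdm5c f/f) to CaMKIIα-creERT2, an inducible Cre recombinase driven by a promoter of forebrain excitatory neurons, and was compared with control mice on a pure C57BL/6J background. Glia and other cells outside that promoter's reach are not its target. The labels do not say whether the control mice carried Cre or received an inducer. There were 3 libraries in each of the 6 groups, namely KO novelty, WT novelty, KO untreated, WT untreated, ifKO and control. The KO and WT libraries were read as single 50 nt reads and the inducible line as paired 75 nt reads on another flowcell, so strain, read layout and flowcell cannot be told apart from the line.

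AMPA, kainate and NMDA receptors are ion channels opened by glutamate and built from 4 subunits of their own class. AMPA receptors carry most fast excitatory current, NMDA receptors admit calcium when the membrane is already depolarised, and metabotropic receptors act through G proteins. GABA-A receptors are chloride channels of 5 subunits whose mix sets whether they sit at synapses or outside them, and GABA-B receptors are obligate pairs of Gabbr1 and Gabbr2 that couple to G proteins.

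The libraries held 16.0 to 45.6 M counts in genes. Summed over the gene, Kdm5c itself measured 63.6 to 69 CPM (counts scaled to 1 M counts of a library, with TMM factors) in ifKO against 62.1 to 67.5 CPM in control libraries, 77.8 to 86.5 CPM in KO novelty against 90.2 to 100 CPM in WT novelty, and 75.4 to 76.3 CPM in KO untreated against 74.2 to 76.4 CPM in WT untreated. Reads from exons that a deletion leaves in place are part of this sum, so it does not check the genotype labels, which were used as given. The hippocampal markers were present throughout, with summed dentate granule cell markers at 275 to 425 CPM and summed CA1 markers at 531 to 725 CPM over all libraries, and inhibitory neuron markers at 625 to 848 CPM. Markers of neighbouring thalamus, striatum and habenula summed to 41.3 to 73.6 CPM. Choroid plexus markers stood at 620 CPM in KO untreated library 2 and 394 CPM in control library 1, and at no more than 77.9 CPM in the ifKO libraries. WT novelty library 1 and KO novelty library 2 stand apart from the other libraries of their groups in the receptor genes, as described with the values.

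Levels were first compared within each class as CPM per kb of exon, which divides the CPM by the length of the gene's exons joined together (the plot of levels by class). Gria1 was the highest of all 34 genes. It measured 206, 225 and 214 CPM per kb in KO novelty, 218, 230 and 223 in WT novelty, 222, 221 and 209 in KO untreated, 206, 208 and 219 in WT untreated, 211, 225 and 218 in ifKO and 224, 216 and 221 in control libraries. These values overlapped in every comparison of 2 groups made here. Gria2, whose edited form keeps AMPA receptors from passing calcium, came second in its class. Its levels were 63.3, 90.8 and 61.8 CPM per kb in KO novelty, 49.1, 86.6 and 73.1 in WT novelty, 79.9, 93.7 and 75.1 in KO untreated, 70.7, 57 and 69.7 in WT untreated, 93.7, 102 and 98.3 in ifKO and 97.7, 96 and 101 in control libraries. Within the KO series Gria2 was lowest in WT novelty library 1 and highest in KO untreated library 2. Gria4 was the lowest AMPA subunit in all 6 groups, at 10.5, 13.4 and 10.9 CPM per kb in KO novelty, 8.37, 10.8 and 11 in WT novelty, 10.9, 12.9 and 11.1 in KO untreated, 12.8, 11.4 and 12 in WT untreated, 14.2, 14.5 and 13.2 in ifKO and 13.2, 14.2 and 14.7 in control libraries. The order Gria1, Gria2, Gria3, Gria4 held in the means of all 6 groups, and Gria1 made up 63.1% ± 2.07 of the AMPA subunit level in KO untreated and 66.6% ± 2.21 in WT untreated libraries (SD, n = 3 each).

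Among the NMDA subunits the obligate subunit Grin1 was highest, with 61.7, 59 and 65.6 CPM per kb in KO novelty, 70.9, 61.7 and 61.8 in WT novelty, 63.2, 62.4 and 66.3 in KO untreated, 62.7, 62.3 and 61.7 in WT untreated, 53.6, 54.6 and 60.1 in ifKO and 54.2, 54.7 and 51.4 in control libraries. Grin2b, the glutamate-binding subunit that prevails early in development, measured 25.5, 43 and 25.6 CPM per kb in KO novelty, 25.2, 35.9 and 29.6 in WT novelty, 33, 35.4 and 32 in KO untreated, 30.3, 25.2 and 30.6 in WT untreated, 43.9, 47.4 and 44.8 in ifKO and 43.1, 43.1 and 45 in control libraries. Grin2a, which joins receptors as the brain matures, measured 19.1, 24.9 and 19.4 CPM per kb in KO novelty, 15.6, 26.7 and 21.3 in WT novelty, 23.4, 24.8 and 21.6 in KO untreated, 20.5, 17.5 and 21.5 in WT untreated, 25.5, 28.7 and 28.4 in ifKO and 28, 25.5 and 28 in control libraries. Grin2b was above Grin2a in each of the 18 libraries. Grin2c, Grin3a and Grin2d followed in that order in all 6 group means, with Grin2d at 2.47 CPM per kb in WT untreated libraries. Grin3b, a subunit best known from spinal and brainstem motor neurons, was close to the limit of counting. Its raw counts were 5, 5 and 6 in KO novelty, 3, 6 and 3 in WT novelty, 7, 3 and 8 in KO untreated, 0, 2 and 1 in WT untreated, 6, 3 and 3 in ifKO and 2, 9 and 7 in control libraries. It did not pass the low-count filter and was not tested, and 32.1% of its exon bases lie opposite exons of Tmem259, which measured 65.1 to 86.2 CPM, and which of the 2 genes these few counts came from was not tested.

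The kainate class was led by Grik5, a subunit that needs a partner such as Grik2 to form a channel. It measured 49.9, 47 and 58.1 CPM per kb in KO novelty, 56.9, 47.9 and 48.1 in WT novelty, 53.3, 51.5 and 58.2 in KO untreated, 45.8, 51.2 and 49.9 in WT untreated, 39.6, 41.9 and 46.9 in ifKO and 39.2, 40.9 and 38.6 in control libraries. Grik1 was the lowest, at 1.59, 2.27 and 1.49 CPM per kb in KO novelty, 1.47, 1.27 and 1.65 in WT novelty, 1.44, 1.58 and 1.41 in KO untreated, 2, 1.82 and 1.78 in WT untreated, 2.06, 2.41 and 1.99 in ifKO and 2.12, 2.21 and 2.34 in control libraries. Grik2 and Grik3 can each form channels alone. Grik2 averaged 7.98 ± 0.443 and Grik3 6.17 ± 0.158 CPM per kb in KO untreated libraries, whereas in WT untreated libraries Grik2 averaged 6.95 ± 0.234 and Grik3 8.63 ± 1.21 (SD, n = 3). The joined exons of Grik2 span 13246 nt and its longest transcript 9427 nt, so the level of Grik2 beside Grik3 depends on which length is used, and the 2 genes were not ranked. Grid1, which forms bridges across synapses more than it conducts, measured 12.3, 14.5 and 13.6 CPM per kb in KO novelty, 13.6, 11.9 and 13.5 in WT novelty, 12.6, 12.9 and 12.2 in KO untreated, 13.4, 14 and 13.5 in WT untreated, 11.7, 12.1 and 12.1 in ifKO and 12.4, 12.7 and 11.9 in control libraries.

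Grm5, the metabotropic receptor of the listed 6 that couples to calcium release, led its class. It measured 25.1, 38.9 and 23.4 CPM per kb in KO novelty, 20.4, 32.8 and 29.5 in WT novelty, 30.3, 37.2 and 28.5 in KO untreated, 28.4, 23.3 and 27.3 in WT untreated, 38.2, 38.9 and 38.5 in ifKO and 38.1, 39.1 and 40.7 in control libraries. The other 5 receptors of the class lower cyclic AMP. Grm2, Grm3 and Grm7 lay close together, at 11.1, 11.3 and 10.1 CPM per kb in WT untreated libraries, and their order differed between groups. Grm8, mostly a presynaptic receptor, was lowest, at 0.646, 0.882 and 0.781 CPM per kb in KO novelty, 0.61, 0.539 and 0.656 in WT novelty, 0.612, 0.752 and 0.67 in KO untreated, 0.872, 0.71 and 0.615 in WT untreated, 0.866, 0.749 and 0.748 in ifKO and 0.856, 0.764 and 1 in control libraries.

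Of the listed GABA-A subunits Gabra5, which marks receptors outside synapses of hippocampal pyramidal cells, was highest in all 6 groups. It measured 61.5, 69 and 61.8 CPM per kb in KO novelty, 61.2, 71.6 and 70.5 in WT novelty, 65.5, 72.1 and 66.6 in KO untreated, 68.6, 63.8 and 66.5 in WT untreated, 69.7, 70.7 and 69.6 in ifKO and 74.2, 70 and 71.2 in control libraries. Gabra2, a synaptic subunit, was second in all 6 group means. Gabra3, Gabra4, Gabrb1 and Gabrb2 followed at 15.3 to 20.4 CPM per kb in WT untreated libraries, in an order that differed between groups. Gabrd, Gabrg1 and Gabrg3 closed the class in that order throughout. Gabrg3 measured 1.87, 2.58 and 1.56 CPM per kb in KO novelty, 1.49, 2.12 and 1.86 in WT novelty, 1.84, 2.3 and 2.05 in KO untreated, 1.96, 1.79 and 1.94 in WT untreated, 2.76, 2.92 and 2.59 in ifKO and 2.72, 2.74 and 2.97 in control libraries. Of the GABA-B pair Gabbr1, which binds GABA, was the higher in all 6 groups. It measured 99.3, 99.6 and 100 CPM per kb in KO novelty, 110, 98.8 and 99.1 in WT novelty, 99.3, 97.3 and 96.1 in KO untreated, 98.1, 96.4 and 97.5 in WT untreated, 91.7, 88.6 and 90.6 in ifKO and 88.3, 89.7 and 87.5 in control libraries. Gabbr2, which couples to the G protein, measured 47.7, 54.3 and 51.7 CPM per kb in KO novelty, 49, 50.2 and 51.3 in WT novelty, 48.6, 49.6 and 49.3 in KO untreated, 50, 48.3 and 49.4 in WT untreated, 45.3, 45.2 and 47.3 in ifKO and 44.7, 46.1 and 47.6 in control libraries.

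**Figure D1:**
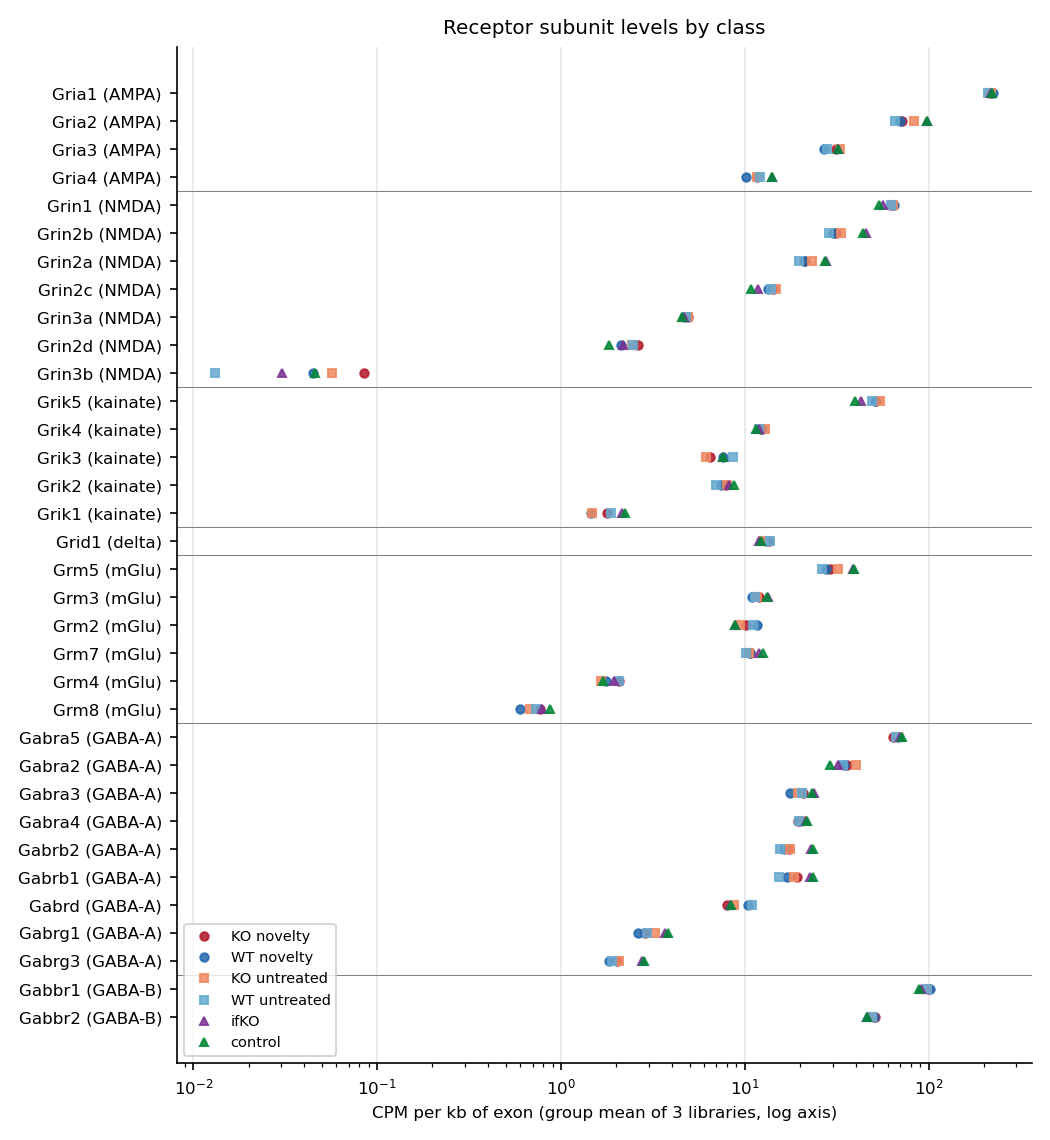
Mean level of each receptor subunit in CPM per kb of exon on a log axis, ordered by class and by the WT untreated level, with 1 point for each of the 6 groups (3 libraries each). Gria1 lies highest at 211 CPM per kb in WT untreated libraries, and Grin3b lies lowest in all 6 groups. Neighbouring genes of a class such as Grm2 and Grm3, at 11.1 and 11.3 CPM per kb in WT untreated libraries, overlap.

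The genotype comparison asked which receptor genes differ in hippocampus without Kdm5c. Each gene was tested with edgeR's quasi-likelihood test, and p-values were adjusted by the Benjamini-Hochberg method over all 16392 genes tested in the KO series. A gene passed at an adjusted p under 0.05. Log2 fold changes are given with their standard error, and positive values mean a higher level in the mutant. Replicates are separate pools of mice, so p-values measure the spread between pools. In whole tissue, fewer cells of a type and less RNA per cell cannot be told apart.

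Over both treatments together, 2 of the 33 tested subunits passed and both fell in KO, namely Grik3 and Gabrd. Over all genes 2.81% passed in this comparison, and 0.494% passed with a lower level in KO. No subunit rose. The 2 subunits were also the only ones of the 33 whose 6 KO libraries lay wholly below the 6 WT libraries, where 0.519% of all genes did, and no subunit had its KO libraries wholly above, where 2.01% of all genes did. The 95% intervals of all 33 subunits lay within a 1.5-fold difference in either direction.

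Grik3 (ENSMUSG00000001985, chr4:125490700-125714173, plus strand of GRCm38) encodes a low-affinity kainate receptor subunit found at mossy fibre terminals among other places. In KO libraries it measured 53.4, 59.2 and 60.8 CPM after novelty and 56.9, 55.2 and 54.1 CPM untreated. In WT libraries it measured 78.4, 60.8 and 65.8 CPM after novelty and 89.8, 72.8 and 69.6 CPM untreated. The groups did not overlap, although the highest KO novelty and the lowest WT novelty library nearly met. The averaged log2 fold change was -0.36 ± 0.08 (95% interval -0.52 to -0.2), with an adjusted p of 0.0165. Grik3 also passed in untreated mice alone, the 1 subunit of 33 to do so (1.24% of all genes passed, and 0.159% with a lower level), at -0.48 ± 0.11 and an adjusted p of 0.0474. The untreated call was lost in each of the 6 fits that left out a library, with adjusted p between 0.0527 and 0.211, and the averaged call was lost without KO untreated library 3 (adjusted p = 0.0505). After novelty alone the difference was -0.24 ± 0.11 with an adjusted p of 0.52, and the interaction between genotype and novelty was 0.24 ± 0.15 with an adjusted p of 1.

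The promoter window of Grik3 is shown because this gene was the 1 kainate subunit that passed. It is the RefSeq sequence of GRCm38.p6, chr4:125490446-125490745, plus strand, from 250 bases before to 50 bases after the annotated start, with each match to the GC box GGGCGG, or to its reverse complement CCGCCC, in capitals.
Grik3: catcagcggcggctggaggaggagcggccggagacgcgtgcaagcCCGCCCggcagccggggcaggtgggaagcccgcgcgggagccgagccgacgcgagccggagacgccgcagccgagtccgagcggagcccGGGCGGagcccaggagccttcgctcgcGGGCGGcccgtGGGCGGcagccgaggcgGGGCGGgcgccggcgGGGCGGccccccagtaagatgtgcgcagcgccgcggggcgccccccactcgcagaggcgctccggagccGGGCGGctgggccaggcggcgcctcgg
It holds 7 GC boxes and 50 CpG pairs at 82.0% GC. At least as many GC boxes occur in 0.627% of the 32851 RefSeq promoter windows of the same length. A match to these letters is a description and not a shown site.

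Gabrd (ENSMUSG00000029054, chr4:155384980-155398112, minus strand of GRCm38) encodes the delta subunit of GABA-A receptors outside synapses, which in hippocampus is most abundant in dentate granule cells. In KO libraries it measured 23.7, 21.5 and 23.5 CPM after novelty and 27, 21 and 27 CPM untreated. In WT libraries it measured 31.1, 30.6 and 28 CPM after novelty and 32.8, 30.6 and 30.7 CPM untreated. Every KO library lay below every WT library, and the lowest was KO untreated library 2, which also had the raised choroid plexus markers. The averaged log2 fold change was -0.35 ± 0.07 (95% interval -0.5 to -0.21) with an adjusted p of 0.0081, and the call held in each of the 12 fits that left out a library. Taken alone, the untreated difference was -0.32 ± 0.09 (adjusted p = 0.186) and the difference after novelty -0.38 ± 0.09 (adjusted p = 0.0758). After novelty no subunit of 33 passed, against 1.34% of all genes, while DESeq2 called Gabrd (adjusted p = 0.027) and 1.93% of all genes. An unadjusted p under 0.05 was found for 5 subunits after novelty (8.73% of all genes), for 4 in untreated mice (8.66%) and for 3 over both treatments (11.9%).

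Grm2 (ENSMUSG00000023192, chr9:106643095-106656082, minus strand of GRCm38), a presynaptic receptor that lowers glutamate release, did not pass and is singled out after its values were seen. In KO libraries it measured 48.6, 48.8 and 52.1 CPM after novelty and 47.5, 42.5 and 48.2 CPM untreated. In WT libraries it measured 64.8, 55.3 and 51.9 CPM after novelty and 55.7, 55 and 52.1 CPM untreated. The untreated groups did not overlap, and the novelty groups overlapped by 1 library of each. Its averaged log2 fold change was -0.22 ± 0.06 with an adjusted p of 0.0786 in edgeR and 0.0311 in DESeq2. Of its exon bases 9.6% lie opposite the antisense gene Gm28111, which had 0 CPM in all libraries.

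The promoter window of Grm2 is shown beside that of Grik3 because it too is rich in GC boxes, a choice made after its values were seen. Gabrd had no window in the RefSeq table, so no promoter trait common to the lower subunits is described. The Grm2 window is the RefSeq sequence of GRCm38.p6, chr9:106656060-106656359, minus strand, with the same letters in capitals.
Grm2: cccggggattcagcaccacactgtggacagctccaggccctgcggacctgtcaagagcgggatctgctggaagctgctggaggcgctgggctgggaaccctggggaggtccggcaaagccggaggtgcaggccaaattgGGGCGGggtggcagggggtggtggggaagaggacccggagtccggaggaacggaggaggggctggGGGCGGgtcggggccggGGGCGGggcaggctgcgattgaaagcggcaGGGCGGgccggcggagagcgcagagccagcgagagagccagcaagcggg
It holds 4 GC boxes and 22 CpG pairs at 72.0% GC, and 5.49% of all windows hold at least as many GC boxes. Over the 24 subunits with a window in the RefSeq table, 16 of 31 windows (51.6%) held a GC box, against 35.7% of all windows. The median GC content was 61.0% in the subunits' windows and 52.7% in all windows. On either strand, the TATA box TATAAA was found in 4 of the 31 windows (12.9%, against 13.6% of all), the E-box CACGTG in 1 (3.23%, against 7.15%) and the cyclic AMP response element TGACGTCA in 0 (1.79% of all).

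**Figure D2:**
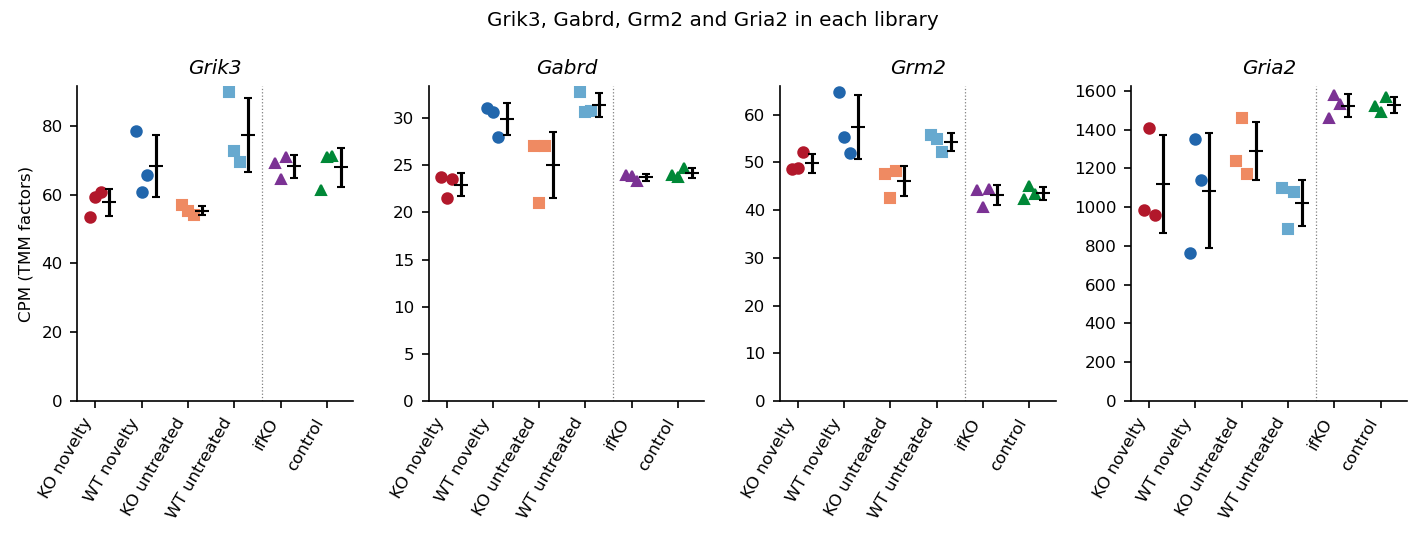
Level of Grik3, Gabrd, Grm2 and Gria2 in CPM in each library, with mean and SD of the 3 libraries of a group in black and the dotted line between the KO series and the inducible line. Gabrd lies lower in every KO than in every WT library. Grik3 does too, although its highest KO and its lowest WT library both round to 60.8 CPM. Gria2 ranges from 763 to 1460 CPM within the KO series and from 1460 to 1580 CPM in the inducible line.

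Markers of cell types that hold these receptors were measured in the same libraries. The 5 dentate granule cell markers summed to 275 to 333 CPM in KO novelty against 325 to 425 CPM in WT novelty and to 305 to 350 CPM in KO untreated against 301 to 369 CPM in WT untreated. Of the 5, Tdo2 fell in KO over both treatments (-0.7 ± 0.13, adjusted p = 0.00679), with 3.41 to 5.22 CPM in KO and 4.91 to 8.27 CPM in WT libraries. In that comparison 2 of the 5 had a positive estimate and the median was -0.14. After novelty alone 0 of the 5 had a positive estimate (median -0.22), and in untreated mice alone 2 did (median -0.06). None of the 5 passed in either alone. Of 8 inhibitory neuron markers Pvalb fell over both treatments (-0.23 ± 0.06, adjusted p = 0.045), while 5 of the 8 had a positive estimate and their median was 0.04. Their sum was 666 to 848 CPM in KO novelty against 662 to 731 CPM in WT novelty, and 625 to 694 CPM in KO untreated against 705 to 785 CPM in WT untreated. Of 5 CA2 and CA3 markers Iyd fell (-0.71 ± 0.16, adjusted p = 0.0279), while the other 4 had positive estimates and the median was 0.07. Their sum was 217 to 228 CPM in KO novelty against 206 to 230 CPM in WT novelty, and 212 to 223 CPM in KO untreated against 180 to 205 CPM in WT untreated. Of 4 CA1 markers none passed.

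Among glia, 1 of 6 astrocyte markers rose, Gfap (0.27 ± 0.05, adjusted p = 0.0115), and the astrocyte sum was 1570 to 1740 CPM in KO novelty against 1420 to 1510 CPM in WT novelty and 1630 to 1690 CPM in KO untreated against 1420 to 1500 CPM in WT untreated. Of 7 oligodendrocyte markers 1 fell, Mbp (-0.26 ± 0.06, adjusted p = 0.0369), while 2 of the 7 had a positive estimate and the median was -0.05. The oligodendrocyte sum was 2540 to 2850 CPM in KO novelty against 2770 to 3150 CPM in WT novelty and 2500 to 2800 CPM in KO untreated against 3240 to 3500 CPM in WT untreated. None of the 5 microglia, 5 tested choroid plexus or 7 neighbouring-region markers passed over both treatments. Kcne2 of the choroid plexus list reached 0 CPM, and no neuronal or glial marker did. The part of these cell type differences in the falls of Grik3 and Gabrd was not tested.

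The other 31 tested subunits did not pass over both treatments. Of all 33, 23 had a positive log2 fold change, with a median of 0.076 against 0.001 over all genes. By class the range was -0.01 to 0.22 for the 4 AMPA subunits, -0.01 to 0.14 for the 6 tested NMDA subunits, -0.36 to 0.14 for the 5 kainate subunits, -0.22 to 0.18 for the 6 metabotropic receptors, -0.35 to 0.22 for the 9 GABA-A subunits and -0.02 to 0.01 for the GABA-B pair, with Grid1 at -0.03. Either GABA-B subunit had a standard error of 0.04, where the median over the subunits was 0.08.

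In untreated mice 9 of the 33 tested subunits (Gria2, Gria3, Grin2a, Grin2b, Grik2, Grik5, Grm5, Gabra2 and Gabrb1) had all 3 KO libraries above all 3 WT libraries, where 11.6% of all genes did. The same held for Grin3b, which was too low to test, with 3 to 8 counts a library in KO and 0 to 2 in WT. The 5 subunits Grik1, Grik3, Grid1, Grm2 and Gabrd had them all below, where 9.35% of all genes did. The 9 higher ones did not pass, with log2 fold changes of 0.15 to 0.33 and adjusted p of 0.689 to 0.816. The summed level of all 34 subunits was 8228, 8791 and 8031 CPM in KO untreated against 7834, 7189 and 7842 CPM in WT untreated libraries, which do not overlap, and 7357, 9130 and 7515 CPM in KO novelty against 7079, 8625 and 8019 CPM in WT novelty libraries, which do. Abundant genes weigh most in this sum, such as Gria2, with means of 1290 CPM in KO untreated and 1020 CPM in WT untreated libraries. The highest and lowest untreated sums were in KO untreated library 2 and WT untreated library 2. The part of the GC trend described below in these sums was not tested. After novelty no tested subunit had its KO libraries wholly above (6.64% of all genes did), although the untested Grin3b did at 0.225 to 0.307 CPM in KO against 0.109 to 0.194 CPM in WT, on at most 6 counts a library, and 2, Grik3 and Gabrd, had them wholly below (4.56% of all genes did). The sign of the difference was the same untreated and after novelty in 17 of 33 subunits (51.5%), and in 60.2% of all genes.

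**Figure D3:**
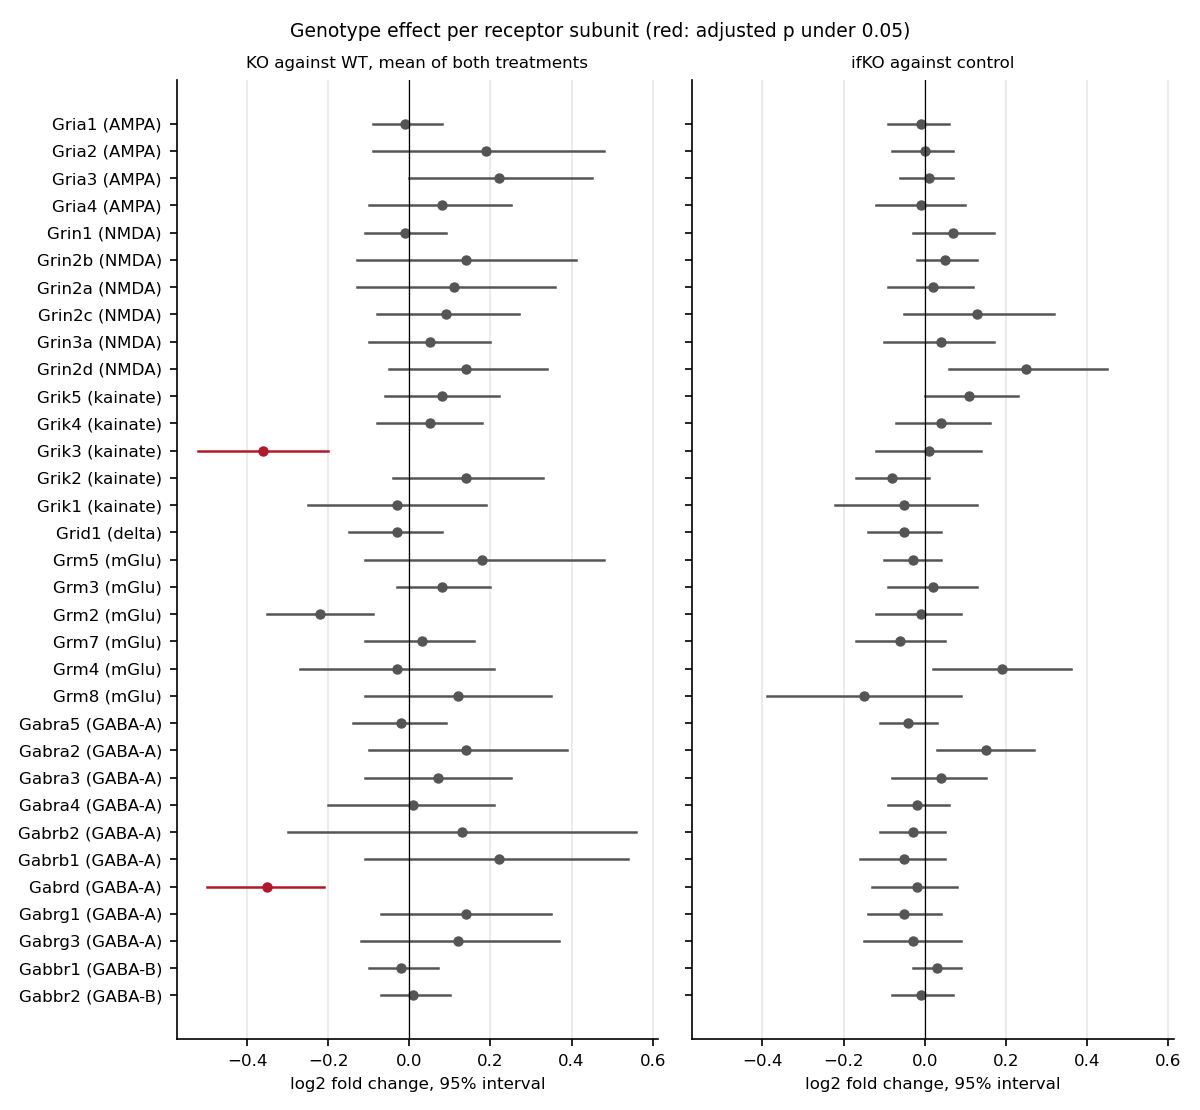
Log2 fold change with its 95% interval for the 33 tested subunits, KO against WT over both treatments on the left and ifKO against control on the right, with subunits that passed in red. Grik3 and Gabrd are the 2 red points on the left, at -0.36 and -0.35, and no point on the right is red.

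The deviation of single libraries of the KO series went with the GC content of the transcripts. The median GC content of the subunits' longest transcripts was 47.4%, from 35.3% for Gabrg1 to 65.0% for Grin2d. Each library's log2 deviation from the mean of its series was taken, and the median of the 17 subunits of high GC content was subtracted from that of the 17 of low GC content. The difference was -0.06, 0.22 and -0.17 in KO novelty, -0.47, 0.22 and 0 in WT novelty, 0.06, 0.25 and 0.02 in KO untreated and 0, -0.13 and -0.02 in WT untreated libraries. In the inducible line it stayed between -0.08 and 0.07. Over all genes split in the same way it was largest in the same library, at -0.28 in WT novelty library 1. It was 0.14 in KO novelty library 2 and 0.13 in WT novelty library 2.

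Subunits of low GC content, such as Gria2 (36.8%), Gabra2 (38.4%), Gabrb1 (40.9%) and Grm5 (42.5%), were low in WT novelty library 1 and high in KO novelty library 2 and KO untreated library 2. The same genes were also high in WT novelty library 2, with log2 deviations of 0.279, 0.189, 0.316 and 0.213. Gabrg1, of the lowest GC content (35.3%), was an exception in KO novelty library 2, with a log2 deviation of -0.062. Gabrb1, a beta subunit, measured 206, 378 and 207 CPM in KO novelty, 180, 294 and 233 CPM in WT novelty, 245, 278 and 242 CPM in KO untreated and 214, 184 and 236 CPM in WT untreated libraries. When the fit carried offsets for GC content and transcript length, the median over the subunits was 0.03 over both treatments and 0.02 in untreated mice. A positive estimate was then found for 22 of 33 subunits over both treatments and for 19 in untreated mice. With these offsets 4 subunits passed over both treatments. Grik3 (-0.39 ± 0.06, adjusted p = 0.00128), Gabrd (-0.35 ± 0.06, adjusted p = 0.00152) and Grm2 (-0.23 ± 0.04, adjusted p = 0.0051) were lower in KO, and Gria3, an AMPA subunit encoded on chromosome X, was higher (0.18 ± 0.04, adjusted p = 0.021), where 4.59% of all genes passed. Without WT novelty library 1 and KO novelty library 2, 12 of 33 subunits had a positive averaged log2 fold change and the median was -0.02. In that fit Grik3 (-0.31 ± 0.07, adjusted p = 0.0147) and Gabrd (-0.31 ± 0.07, adjusted p = 0.0164) still passed, and Gria3 was at 0.08 ± 0.05 with an adjusted p of 0.552.

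**Figure D4:**
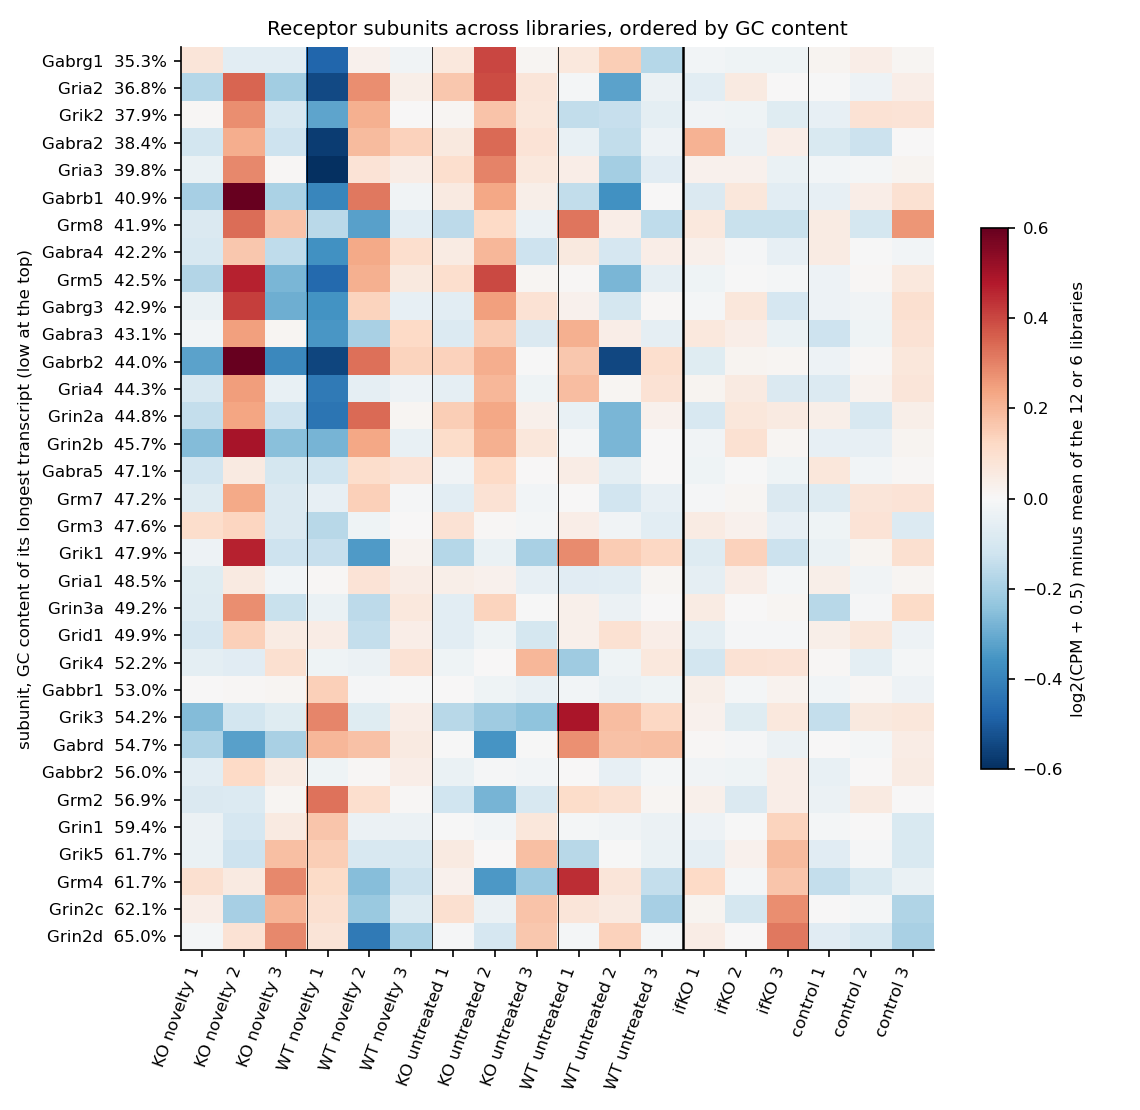
Log2(CPM + 0.5) of the 33 tested subunits in each library as the difference from the mean of the 12 libraries of the KO series or the 6 of the inducible line, with subunits ordered from low GC content at the top to high at the bottom. The upper block is mostly blue in WT novelty library 1 and mostly red in KO novelty library 2 and KO untreated library 2. It is mostly red in WT novelty library 2 as well. The inducible line is pale, and Grik3 and Gabrd are blue in most KO and red in most WT libraries.

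The mix of subunits was followed as per-library ratios of CPM per kb. The ratio of Gria1 to Gria2 was 3.26, 2.47 and 3.47 in KO novelty, 4.44, 2.65 and 3.06 in WT novelty, 2.77, 2.36 and 2.79 in KO untreated, 2.92, 3.64 and 3.14 in WT untreated, 2.25, 2.21 and 2.21 in ifKO and 2.3, 2.25 and 2.19 in control libraries. Untreated KO and WT libraries did not overlap (2.64 ± 0.245 against 3.23 ± 0.371, SD, n = 3), the other pairs did, and the highest ratio was in WT novelty library 1. Gria1 transcripts have 48.5% and Gria2 transcripts 36.8% GC, and the ratio was highest in the library where subunits of low GC content were lowest. Gria2 is itself among those subunits, so these observations are not separate. The part of the GC trend in the untreated difference was not tested.

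The ratio of Grin2a to Grin2b, 2 subunits of closer GC content (44.8% and 45.7%), averaged 0.695 ± 0.101 in KO novelty and 0.694 ± 0.0665 in WT novelty libraries, 0.696 ± 0.0197 in KO untreated and 0.691 ± 0.0133 in WT untreated libraries, and 0.606 ± 0.0254 in ifKO and 0.622 ± 0.0291 in control libraries (SD, n = 3 each). The libraries overlapped in each of these 3 pairs. Among the listed GABA-A subunits, Gabrd made up 4.29% ± 0.814 of the summed level per kb in KO novelty against 5.64% ± 1.19 in WT novelty, 4.43% ± 0.878 in KO untreated against 5.84% ± 0.248 in WT untreated, and 3.98% ± 0.00468 in ifKO against 4.04% ± 0.00676 in control libraries. These shares did not overlap in any of the 3 pairs. The level of Gabrd did overlap between ifKO and control libraries (-0.02 ± 0.05, adjusted p = 0.971 in edgeR). In untreated mice the share of Gabra2 did not overlap either, at 19.5 to 21.2% in KO against 17.7 to 18.5% in WT. Nor did that of Gabrb1, at 9.26 to 9.38% against 7.61 to 8.97%. Gabrd transcripts have 54.7% GC, and the lowest Gabrd shares, 3.42% and 3.35%, were in KO untreated library 2 and KO novelty library 2. The part of the GC trend in these shares was not tested.

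**Figure D5:**
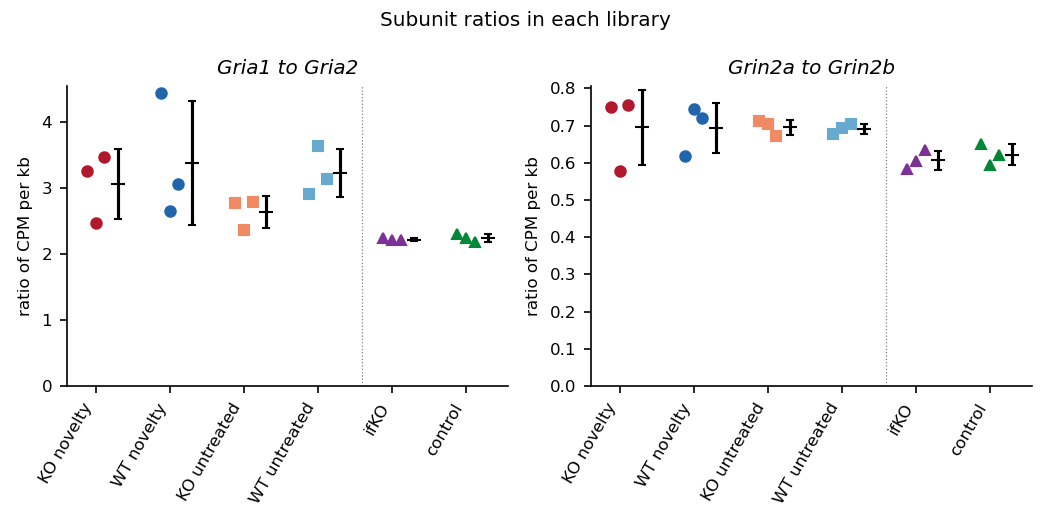
Ratio of Gria1 to Gria2 and of Grin2a to Grin2b in each library, from levels in CPM per kb, with mean and SD of each group in black. The Gria1 to Gria2 ratio runs from 2.36 to 4.44 in the KO series and from 2.19 to 2.3 in the inducible line, and the Grin2a to Grin2b ratio from 0.579 to 0.755 over all libraries.

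The comparison of ifKO with control mice asked what loss of Kdm5c in adult forebrain excitatory neurons does to the same genes. None of the 33 tested subunits passed by edgeR, where 0.645% of 17367 genes did, and 3 had an unadjusted p under 0.05, where 6.64% of all genes did. DESeq2 called 0 as well. The estimates were tight, with a median standard error of 0.05 and all 33 intervals within a 1.5-fold difference. The median log2 fold change was -0.006, against 0.001 over all genes.

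Grik3 measured 69.3, 64.5 and 71 CPM in ifKO against 61.5, 70.9 and 71.4 CPM in control libraries, a log2 fold change of 0.01 ± 0.06 (95% interval -0.12 to 0.14, adjusted p = 0.991). Gabrd measured 24, 23.8 and 23.3 CPM in ifKO against 24, 23.7 and 24.7 CPM in control libraries, a log2 fold change of -0.02 ± 0.05 (95% interval -0.13 to 0.08, adjusted p = 0.971). Grm2 measured 44.3, 40.7 and 44.5 CPM in ifKO against 42.3, 45 and 43.3 CPM in control libraries (-0.01 ± 0.05, adjusted p = 0.983). The groups overlapped for all 3 genes. The dentate granule cell markers summed to 282 to 341 CPM in ifKO against 326 to 332 CPM in control libraries, with Tdo2 at 6.16 to 6.9 CPM in ifKO against 7.58 to 9.02 CPM in control libraries. No gene of the 9 cell type marker lists passed in this comparison.

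The difference between the untreated KO effect and the ifKO effect was tested in 1 fit of all 18 libraries. It was -0.48 ± 0.14 for Grik3 (unadjusted p = 0.00258, adjusted p = 0.489), -0.29 ± 0.11 for Gabrd (unadjusted p = 0.0183) and -0.49 ± 0.19 for Grm4 (unadjusted p = 0.0192). No subunit passed, where 0.114% of 17508 genes did, and 3 had an unadjusted p under 0.05, where 4% of all genes did, so a difference between the lines was not shown for any of the 33. Over both lines the sign of the averaged KO effect and of the ifKO effect was the same in 17 of 33 subunits (51.5%), and in 56.7% of all genes.

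The subunits with an unadjusted p under 0.05 in ifKO were all higher there. Grin2d, an NMDA subunit of inhibitory neurons in hippocampus, measured 13.6, 13.2 and 16.5 CPM in ifKO against 12.5, 12.3 and 11.5 CPM in control libraries, which do not overlap (0.25 ± 0.09, adjusted p = 0.536). Grm4, a presynaptic receptor, measured 11.8, 10.7 and 12.2 CPM in ifKO against 9.74, 10.1 and 10.5 CPM in control libraries, which do not overlap either (0.19 ± 0.08, adjusted p = 0.638). Gabra2 measured 269, 228 and 240 CPM in ifKO against 219, 213 and 233 CPM in control libraries (0.15 ± 0.06, adjusted p = 0.584). With no low-count filter Gabra2 passed (adjusted p = 0.00722), where 1.39% of all genes did. Gabrg1, a gamma subunit, was the 1 subunit whose ifKO libraries all lay below the controls, at 29.2, 29 and 29 CPM in ifKO against 30, 30.5 and 29.9 CPM in control libraries (-0.05 ± 0.04, adjusted p = 0.906). Over all genes 6.55% lay wholly above and 5.48% wholly below.

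The novelty comparison asked whether 1 h of exploration moves these transcripts. No subunit passed in KO mice, where 0.11% of all genes did, in WT mice, where 0.384% did, or over both genotypes, where 1.35% did. In edgeR 0 subunits had an unadjusted p under 0.05 in KO (6.71% of all genes) and over both genotypes (13.5%), and 2 did in WT (11%), Gria4 (-0.26 ± 0.12) and Grik1 (-0.35 ± 0.15). DESeq2 called 0 in all 3 comparisons. Over both genotypes the estimates ran from -0.17 ± 0.1 for Gabrg1 to 0.1 ± 0.15 for Gabrb1, and all 33 intervals lay within 1.5-fold. In KO mice Grm2, Grm4 and Gabbr1 had all 3 novelty libraries above the 3 untreated ones (8.6% of all genes) and no subunit had them below (6.35%). In WT mice Gabbr1 was the 1 tested subunit to have them above (8.3% of all genes), as did the untested Grin3b, and Gria4 and Grik1 had them below (7.7%). Over both genotypes no subunit's 6 novelty libraries lay wholly above (1.38% of all genes) or below (0.573%) the 6 untreated ones. Of the cell type markers 1 passed for novelty, the astrocyte gene Gjb6, which rose over both genotypes (0.27 ± 0.06, adjusted p = 0.0493), with 57.4 to 74.3 CPM in novelty and 48.5 to 57.3 CPM in untreated libraries.

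No subunit passed for the interaction, for which 0 of 16392 genes passed and 3.43% had an unadjusted p under 0.05, nor did any by DESeq2. Its intervals were wide, with 20 of 33 within 1.5-fold. The largest estimate was that of Grik1, which measured 10.7, 15.2 and 9.98 CPM in KO novelty, 9.89, 8.53 and 11.1 CPM in WT novelty, 9.66, 10.6 and 9.51 CPM in KO untreated and 13.4, 12.2 and 12 CPM in WT untreated libraries. The WT untreated libraries were all above those of KO untreated, and the highest value of all was in KO novelty library 2. The interaction was 0.62 ± 0.21 (unadjusted p = 0.00983, adjusted p = 1), and those of Grm4 (0.55 ± 0.22) and Grm8 (0.46 ± 0.21) also had an unadjusted p under 0.05.

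The interaction depended on the 2 libraries that stand apart. Without WT novelty library 1 and KO novelty library 2, 5 subunits passed with a lower novelty response in KO, Gria2 (-0.68 ± 0.15, adjusted p = 0.0392), Grin2b (-0.58 ± 0.12, adjusted p = 0.0392), Grm5 (-0.65 ± 0.15, adjusted p = 0.0411), Gabra2 (-0.52 ± 0.11, adjusted p = 0.0358) and Gabrb1 (-0.62 ± 0.15, adjusted p = 0.0493), where 2% of all genes passed. All 5 have transcripts of low GC content, 36.8 to 45.7%. They were low in WT novelty library 1 and high in KO novelty library 2. Leaving these libraries out therefore lowers the 5 estimates by itself, and the adjusted p are not separate evidence of an interaction. WT novelty library 2 was kept, although its difference between subunits of low and high GC content, 0.22, equals that of KO novelty library 2. KO untreated library 2, at 0.25, and WT untreated library 2, at -0.13, were kept as well. The 5 subunits were high in the former and low in the latter, which also lowers the 5 estimates. With all libraries kept and GC and length offsets in the fit, the same 5 estimates were -0.04, -0.02, -0.14, -0.09 and 0.07, with adjusted p of 0.92 to 0.987.

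Genes that place, anchor or supply these receptors were taken from 5 lists. Of 17 auxiliary subunits and pentraxins of AMPA and kainate receptors, Nptxr was the 1 gene to differ by genotype. Nptxr, a membrane pentraxin that gathers AMPA receptors, measured 1120, 1090 and 1190 CPM in KO novelty against 1050, 867 and 1000 CPM in WT novelty, and 1000, 1110 and 1170 CPM in KO untreated against 821, 893 and 921 CPM in WT untreated libraries. It rose over both treatments (0.27 ± 0.06, adjusted p = 0.0216), and rose in the inducible line too, with 825, 846 and 827 CPM in ifKO against 703, 770 and 720 CPM in control libraries (0.19 ± 0.04, adjusted p = 0.037). Of all genes 2.81% passed over both treatments and 0.645% in the inducible line. No gene of the 17 passed by genotype in untreated mice alone or after novelty alone. For Nptxr the groups did not overlap in any of the 3 pairs. Of all genes 11.6% lay wholly above untreated, 6.64% after novelty and 6.55% in the inducible line.

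Nptx2, an activity-regulated pentraxin, passed for novelty. It measured 30.8, 31.8 and 33.1 CPM in KO novelty against 24.3, 19.7 and 23.1 CPM in KO untreated, and 33.3, 33.8 and 31.3 CPM in WT novelty against 17.7, 19.4 and 20.7 CPM in WT untreated libraries. It rose by 0.51 ± 0.09 in KO (adjusted p = 0.0451) and by 0.77 ± 0.09 in WT (adjusted p = 0.00487), and the interaction was -0.26 ± 0.12 (adjusted p = 1).

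Of 16 partners of NMDA and metabotropic receptors, Homer1, a scaffold whose short form is made on activity, passed for novelty. It measured 159, 249 and 157 CPM in KO novelty against 120, 104 and 92.6 CPM in KO untreated, and 123, 230 and 208 CPM in WT novelty against 80.6, 78.6 and 84.4 CPM in WT untreated libraries. It rose in WT (1.2 ± 0.21, adjusted p = 0.034) and over both genotypes (1.02 ± 0.15, adjusted p = 0.00384), while in KO alone it was at 0.84 ± 0.21 (adjusted p = 0.287), with an interaction of -0.37 ± 0.3 (adjusted p = 1). None of the 10 genes of glutamate supply and clearance, the 8 of GABA supply and clearance or the 13 partners of GABA receptors passed in any of the 9 comparisons, and their medians over both treatments were 0.01, -0.02 and 0.07.

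Position and overlap set limits on some of these values. Gabrg1, Gabra2, Gabra4 and Gabrb1 lie in a cluster on chromosome 5, where Gabra4 and Gabrb1 run in opposite directions and share a span of 196 nt, and Gabra5 and Gabrg3 are neighbours on chromosome 7. Over both treatments the cluster's 4 genes were at 0.14 ± 0.1, 0.14 ± 0.11, 0.01 ± 0.09 and 0.22 ± 0.15, and none passed. Exon bases of 15 of the 34 genes are shared with another annotated gene, on the opposite strand for 9 of them. For Grin1, 13.5% of exon bases lie opposite Grin1os, which had at most 0.259 CPM in any library, and for Gabra5, 5.0% lie opposite Gm9962, which had at most 1.85 CPM.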

How the data were processed

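Each of the 18 deposited files gives, for 1 library, whole counts of reads per Ensembl gene with no scaling by the authors. The submitters' processing notes name the build GRCm38 and the tools HTSeq 0.6.1, STAR 2.5.0c, DESeq2 and SAMtools 1.3. How HTSeq treated strand, and which annotation it used, is not given in the sources. The 24 sample records include both reads of the paired libraries. The summary lines of each file were left out of library sizes, with 14.7 to 17.2% of reads in no feature and 0.765 to 1.06% ambiguous. Of 47069 identifiers 46574 were matched to GENCODE M21, including all 34 subunits, and 495 were not. No 2 libraries of a group agreed within sampling noise.

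Tests were run with edgeR 4.0.16 in R 4.3.3, after TMM scaling and a low-count filter (filterByExpr, which asks for a count of 10 and a total of 15). The prior count behind fitted fold changes was 0.125. The 12 libraries of the KO series were fitted together, the 6 of the inducible line alone, and the difference between lines over all 18. At 16.0 to 45.6 M counts per library, tested subunits had at least 137 counts in every library, and for members of few counts or of little spread counting error can equal or exceed the spread between pools. Alternatives were DESeq2 1.42.0, RLE factors, other low-count filters, only the groups compared, offsets for GC content and length, the replicate number as a block, and libraries left out singly or as a pair.

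All 34 members are accounted for. Values in every library are given for members that passed in any comparison, for the highest and lowest of each class, and for Grin2a, Grin2b, Gria1 and Gria2, and other members that are named were chosen after their values were seen. Partner genes are named where they passed. The list of members, the other gene lists and the alternatives were chosen with earlier results of these data known. Promoter sequences are from RefSeq (GRCm38.p6), in which 24 of the 34 subunits were matched.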

Additional observations from a re-analysis of the deposited data

How the results depend on the processing

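Leaving out 1 library at a time gave 0 to 0 subunits called in untreated KO (1 with all libraries) and 1 to 3 over both treatments (2 with all libraries). Over both treatments the range for Grik3 was -0.41 to -0.31 and for Gabrd -0.39 to -0.3. Offsets for GC content and length, alone or with the replicate block, gave 4 calls over both treatments and 1 after novelty (Gabrd, against 0). Of all genes 4.59% then passed over both treatments and 2.09% after novelty with the offsets alone, and 4.3% and 1.8% with the block. DESeq2 and the fit with no low-count filter also gave 1 after novelty, where 1.93% and 1.15% of all genes passed. No low-count filter gave 1 in ifKO (Gabra2, against 0), where 1.39% of all genes passed, against 0.645% in the main fit. Leaving out WT novelty library 1 and KO novelty library 2 together gave 5 for the interaction (against 0), where 2% of all genes passed. The cause of these shifts was not tested. No result changed its direction among those that passed. Other alternatives kept every count within 1.5 times.

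The replicate block alone kept 1 call in untreated KO, 2 over both treatments and 0 in the other comparisons. For same-numbered libraries the correlations of their deviations were -0.22 to -0.08 for untreated KO and WT, 0.04 to 0.39 after novelty, -0.28 to 0.04 for novelty in WT, 0.06 to 0.2 for novelty in KO and -0.14 to -0.02 in the inducible line. After novelty, KO library 2 reached 0.39 with WT library 2, against at most 0 with a WT library of another number. KO library 3 reached 0.04, against 0.29. These values do not settle whether same-numbered libraries pair. With the longest transcript's length in place of all exons, the Grin2a to Grin2b ratio was 0.825 in KO novelty, 0.823 in WT novelty, 0.825 in KO untreated, 0.82 in WT untreated, 0.72 in ifKO and 0.738 in control libraries. The Gria1 to Gria2 ratio was then 2.23 in KO novelty, 2.46 in WT novelty, 1.92 in KO untreated, 2.35 in WT untreated, 1.62 in ifKO and 1.63 in control libraries. Receptor sums moved by less than 1 SD without TMM factors. Depth limits Grin3b, at 0 to 9 counts per library.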
